A study of Drosophila melanogaster with 8 samples.

Results

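The genes described here are Ilp8, which encodes a secreted relaxin-like peptide, and 5 genes of insulin signalling: ImpL2, Sdr, InR, chico and foxo. They were chosen by name, as the 6 rows of the deposited normalized counts whose FlyBase identifiers carry these symbols, out of 18354 gene rows, and all 6 passed the filter on low values. Total RNA was sequenced from wing discs of Drosophila melanogaster larvae; these folded epithelial sacs give rise to the wing and part of the thorax. There were 4 ecd-RNAi libraries, whose discs carried nub-Gal4, UAS-mRFP and UAS-ecd-RNAi, and 4 control libraries, whose discs carried nub-Gal4 and UAS-mRFP. Both groups thus share the driver and the red fluorescent protein, and they differ in the construct against ecd (ecdysoneless, whose product takes part in splicing and is needed for ecdysone synthesis). Each library was a pool of 150 discs from third-instar larvae kept at 25 °C and taken 7 days after egg-laying, and in the ecd-RNAi group the construct was driven until collection. The driver is active in the wing pouch and hinge, so the notum in the same pool lies outside its domain, and in bulk samples fewer cells of a type cannot be told apart from less RNA per cell.

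Insulin-like peptides bind the receptor InR at the cell surface and act through the adaptor chico, phosphoinositide 3-kinase and the kinase Akt to promote growth. Akt phosphorylates the transcription factor foxo and keeps it out of the nucleus, so foxo is active when insulin signalling is low. ImpL2 and Sdr are secreted proteins that bind insulin-like peptides and limit their access to the receptor. Ilp8 belongs to the relaxin branch of the family: discs that are damaged or grow abnormally release it, and it acts through the receptor Lgr3 in the brain to hold back ecdysone and delay metamorphosis.

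Checks of the libraries bear on every value. The transcript of ecd was at 1416, 1208, 1307 and 1462 normalized counts in ecd-RNAi replicates 1 to 4, against 1052, 1015, 1047 and 998 in control replicates 1 to 4, so the targeted gene was higher in each library labelled ecd-RNAi, and directions below are those of the labels. These values per gene do not separate the gene's own transcripts from any reads of the RNAi construct, so they do not check the knockdown. Normalized counts, the unit used throughout, are read estimates divided by a size factor per library. Depth, approximated from the commonest step between low values, was 31131341 to 37541509.6 reads in libraries labelled ecd-RNAi and 29505037 to 36528163 reads in control libraries. Ribosomal RNA took 26.6% to 35.2% of the signal in the libraries labelled ecd-RNAi and 49.0% to 53.0% in controls. Transposon rows took 6.36% to 9.64% in the libraries labelled ecd-RNAi and 0.327% to 0.441% in controls. Of 6 wing disc markers, nub, vg, sd, ap and ptc fell and wg rose, and all 6 were well expressed in both groups (summed level 33813 to 34941 in libraries labelled ecd-RNAi and 40746 to 42651 in control libraries). By the threshold given below, 1 of the 6 was called higher and 5 lower. The shares over all tested genes were 30.8% higher and 31.7% lower.

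In discs labelled ecd-RNAi, Ilp8 was 180.0-fold higher, foxo and InR fell by 41.8% and 37.4%, ImpL2 was 1.32-fold higher, Sdr fell by 14.8%, and chico was not called. Here a call means an adjusted p below 0.05 (Benjamini-Hochberg) when limma was fitted to log2(normalized count + 1) for the 9380 genes averaging 10 or more. Of the 6 genes 2 were called higher, 3 lower and 1 was not called, where 62.5% of all tested genes were called, 30.8% higher and 31.7% lower. In 4 of the 6 the groups did not overlap, higher in 2 and lower in 2, as in 57.2% of all tested genes, 28.0% higher and 29.2% lower. The balance of calls depended on the scaling: 49.3% of called genes were higher (2889 higher and 2970 lower), against 38.2% with libraries recentred on their medians (2285 higher and 3691 lower). A call alone therefore says little in this comparison, and sizes and levels are given for each gene.

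**Figure D1:**
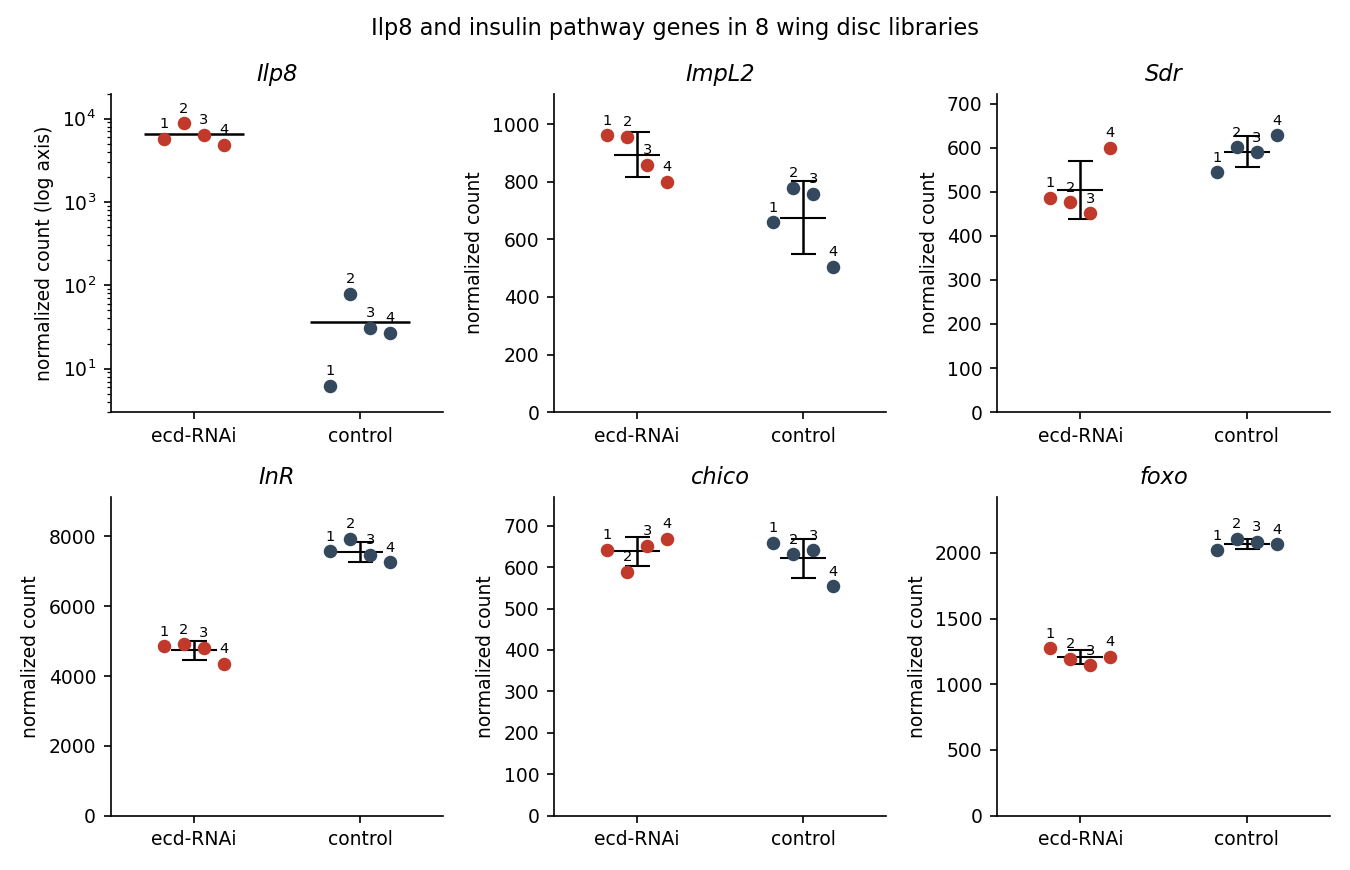
Normalized count of each gene in each library, with ecd-RNAi libraries on the left of each panel and control libraries on the right. Points are libraries with their replicate number, bars are the mean with the SD over 4 libraries (mean only for Ilp8, whose axis is logarithmic). Ilp8, ImpL2, InR and foxo show no overlap between the groups, and Sdr and chico do.

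Ilp8 (FBgn0036690, chromosome 3L, 17029812 to 17032080, minus strand, BDGP6) is the ligand of the set. It was at 5739, 8790.05, 6393 and 4869 normalized counts in ecd-RNAi replicates 1 to 4, against 6.20, 79.1, 30.9 and 27.1 in control replicates 1 to 4. The lowest library labelled ecd-RNAi lay far above the highest control library, and the controls themselves spread 12.7-fold from lowest to highest, against 1.81-fold among the libraries labelled ecd-RNAi. The mean was 6448 ± 1682 in libraries labelled ecd-RNAi and 35.8 ± 30.8 in controls (normalized counts, SD, n = 4 each), and the log2 fold change was 7.88 (SE 0.58, adjusted p = 1.21e-06 by limma and Benjamini-Hochberg). An exact two-sided permutation test gave p = 0.0286, the smallest that 4 against 4 libraries allow. By log2 fold change it ranked 13 from the top among the 9380 genes tested. The size of the fold hung on the control libraries: without control replicate 2 it was 301.4, and without control replicate 1 it was 141.1.

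The single annotated transcript of Ilp8 shares 26 exonic bases with a long non-coding RNA gene on the same strand, lncRNA:CR45756, and 3 with CG7730 on the opposite strand. The non-coding RNA averaged 5.49 normalized counts in libraries labelled ecd-RNAi and 0.591 in controls, and CG7730 averaged 293 in libraries labelled ecd-RNAi and 203 in controls.

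Of the 8 genes for insulin-like peptides, Ilp8 and Ilp6 passed the filter on low values. Ilp2, Ilp4 and Ilp5 were at 0 in all 8 libraries, which allows up to 2.49 to 2.94 normalized counts per library labelled ecd-RNAi and 3.11 to 3.60 per control library (3 reads, counting error only). Ilp1, Ilp3 and Ilp7 stayed at or below 4.15 normalized counts in each library. Ilp2, Ilp3 and Ilp5 are the products of the brain's insulin-producing cells, and the summed level of the 4 markers of those cells was 1.73 to 3.92 in libraries labelled ecd-RNAi and 0 to 2.26 in controls.

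Ilp6, a peptide made mainly in the fat body, was the other ligand tested. It was at 11.01, 7.91, 0.650 and 1.99 normalized counts in ecd-RNAi replicates 1 to 4 and 33.0, 17.8, 15.8 and 10.6 in control replicates 1 to 4. The groups overlapped, between ecd-RNAi replicate 1 and control replicate 4. Ilp6 fell, with a log2 fold change of -1.97 (SE 0.65, adjusted p = 0.023 by limma and Benjamini-Hochberg). However, the call was lost without ecd-RNAi replicate 3 or 4 (adjusted p = 0.0519 and 0.0533 by limma). Over the settings in which Ilp6 was tested, its adjusted p by limma lay between 0.00907 and 0.0533. Ilp6 was below the filter without control replicate 1 and with the filter at a mean of 50. The values of ecd-RNAi replicates 3 and 4 lay below the level of 3 reads in those libraries, 2.49 and 2.54 normalized counts, and with a pseudocount of 10 the log2 fold change was -0.93. The 6 fat body markers, Ilp6 among them, summed to 544 to 4252 normalized counts in libraries labelled ecd-RNAi and 963 to 6452 in controls. Of these 6 markers 0 were called higher and 2 lower, where 30.8% of all tested genes were called higher and 31.7% lower. The part of this summed level in the Ilp6 difference was not tested.

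Among receptors, InR (FBgn0283499, chromosome 3R, 21570248 to 21619321, minus strand) was lower in the libraries labelled ecd-RNAi. This receptor tyrosine kinase was at 4864, 4913, 4809 and 4349 normalized counts in ecd-RNAi replicates 1 to 4, against 7575, 7941, 7481 and 7258 in control replicates 1 to 4. Each library labelled ecd-RNAi lay below each control library, with a gap between the groups wider than the range within either. The mean was 4734 ± 260.0 in libraries labelled ecd-RNAi and 7564 ± 284 in controls (normalized counts, SD, n = 4 each), a log2 fold change of -0.68 (SE 0.05, 95% interval -0.78 to -0.57, adjusted p = 6.94e-07 by limma and Benjamini-Hochberg; exact permutation p = 0.0286). No annotated gene shared exonic bases with InR, Sdr or foxo.

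Lgr3, the receptor through which Ilp8 acts, was at 33.7 ± 2.70 normalized counts in libraries labelled ecd-RNAi and 33.2 ± 10.4 in controls (SD, n = 4 each), and its log2 fold change of 0.08 had a wide 95% interval, -0.49 to 0.65 (adjusted p = 0.797 by limma and Benjamini-Hochberg). Lgr4, a related receptor, rose to 289.9 ± 24.6 normalized counts in libraries labelled ecd-RNAi, against 200.1 ± 9.47 in controls (log2 fold change 0.53, SE 0.08, adjusted p = 0.000228).

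Of 6 receptors and secreted binding proteins, 3 were called higher, 2 lower and 1 was not called. Among all tested genes, 62.5% were called, 30.8% higher and 31.7% lower. The binding proteins moved in both directions. ImpL2 (FBgn0001257, chromosome 3L, 4224006 to 4236147, minus strand), an immunoglobulin-domain protein, was at 962, 956, 859 and 799.9 normalized counts in ecd-RNAi replicates 1 to 4, against 660.1, 779, 759 and 505 in control replicates 1 to 4. The groups did not overlap, but the gap between ecd-RNAi replicate 4 and control replicate 2 was narrow. The mean was 894 ± 78.7 in libraries labelled ecd-RNAi and 676 ± 125 in controls (normalized counts, SD, n = 4 each), and ImpL2 rose with a log2 fold change of 0.42 (SE 0.13, 95% interval 0.14 to 0.70, adjusted p = 0.0153 by limma and Benjamini-Hochberg; exact permutation p = 0.0286). Its exons share 1651 bases, 61.9% of their length, with those of CG46460 on the same strand, which is listed at 0 in all 8 libraries, so how reads were divided between the pair depends on the authors' quantification.

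Sdr (FBgn0038279, chromosome 3R, 14918628 to 14923083, plus strand), named as a secreted decoy of InR, was at 487, 476, 451 and 599.8 normalized counts in ecd-RNAi replicates 1 to 4 and 545, 600.4, 589 and 628 in control replicates 1 to 4. Replicate 4 labelled ecd-RNAi lay within the control range, and the other 3 lay below it. The mean was 503 ± 66.1 in libraries labelled ecd-RNAi and 591 ± 34.8 in controls (normalized counts, SD, n = 4 each), a log2 fold change of -0.24 (SE 0.09, adjusted p = 0.0372 by limma and Benjamini-Hochberg; exact permutation p = 0.0857). The call was lost without any 1 of ecd-RNAi replicates 1, 2 or 3 or control replicates 2, 3 or 4 (adjusted p between 0.0695 and 0.103), and the authors' deposited table gives an adjusted p of 0.0616. A further binding partner, conv, the fly relative of the acid-labile subunit that carries insulin-like growth factors in mammals, rose to 2669.9 ± 64.8 normalized counts in libraries labelled ecd-RNAi, against 1844 ± 117 in controls (log2 fold change 0.54, SE 0.05, adjusted p = 3.87e-06).

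Inside the cell, chico (FBgn0024248, chromosome 2L, 10242512 to 10247078, minus strand), the insulin receptor substrate, was at 642, 589, 651 and 669 normalized counts in ecd-RNAi replicates 1 to 4 and 659, 631, 641 and 554 in control replicates 1 to 4. The groups overlapped across most of their ranges. The mean was 638 ± 34.3 in libraries labelled ecd-RNAi and 621 ± 46.3 in controls (normalized counts, SD, n = 4 each), and the log2 fold change was 0.04 with a 95% interval of -0.11 to 0.19 (adjusted p = 0.619 by limma and Benjamini-Hochberg; exact permutation p = 0.543); its sign turned negative with each of 3 other scalings and without control replicate 4. An antisense RNA, asRNA:CR44995, overlaps 380 bases, 10.6% of the exons of chico, and was itself at 468 normalized counts in libraries labelled ecd-RNAi and 493 in controls; the sources used here do not say whether reads were assigned by strand.

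The transcription factor foxo (FBgn0038197, chromosome 3R, 14056945 to 14087978, plus strand) was at 1274, 1195, 1143 and 1209 normalized counts in ecd-RNAi replicates 1 to 4, against 2022, 2109, 2085 and 2064 in control replicates 1 to 4. By coefficient of variation it was the least variable of the 6 genes in each group, and the groups lay far apart relative to that spread. The mean was 1205 ± 54.0 in libraries labelled ecd-RNAi and 2070.0 ± 37.1 in controls (normalized counts, SD, n = 4 each), a log2 fold change of -0.78 (SE 0.04, 95% interval -0.87 to -0.69, adjusted p = 1.01e-07 by limma and Benjamini-Hochberg; exact permutation p = 0.0286). Of all tested genes, 19.4% had a larger absolute log2 fold change than foxo and 22.9% a larger one than InR.

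Ratios within a library do not change when all its values are multiplied by 1 factor, and 7 of them were computed; they were chosen after the values had been seen and are given as a description. The log2 ratio of InR to chico was 2.89 ± 0.15 in libraries labelled ecd-RNAi and 3.61 ± 0.09 in controls (SD, n = 4 each). That of foxo to chico was 0.92 ± 0.10 in libraries labelled ecd-RNAi and 1.74 ± 0.12 in controls. Neither ratio overlapped between the groups, so both genes were lower relative to chico under any such factor per library. The log2 ratio of ImpL2 to InR, a binding protein against the receptor, was -2.41 ± 0.07 in libraries labelled ecd-RNAi and -3.50 ± 0.25 in controls, also without overlap, and those of Sdr to InR and ImpL2 to Sdr were higher by 0.44 and 0.66. The ratios of foxo to InR and of ImpL2 to chico overlapped between the groups, with differences of -0.10 and 0.38.

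Levels were compared between genes per kilobase of annotated exon. In libraries labelled ecd-RNAi the order was Ilp8 at 7437 ± 1940 normalized counts per kb, InR at 416 ± 22.9, ImpL2 at 335 ± 29.5, foxo at 292 ± 13.1, chico at 178 ± 9.58 and Sdr at 124 ± 16.2. In controls it was InR at 665 ± 25.0, foxo at 501 ± 8.99, ImpL2 at 253 ± 46.9, chico at 174 ± 12.9, Sdr at 145 ± 8.54 and Ilp8 at 41.3 ± 35.5 (SD, n = 4). Neighbours in each order had ranges that did not overlap, except ImpL2 and foxo in libraries labelled ecd-RNAi. Ilp8 stood first in one group and last in the other, and its level per kb exceeded that of 98.0% of tested genes in libraries labelled ecd-RNAi and of 19.4% in controls.

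**Figure D2:**
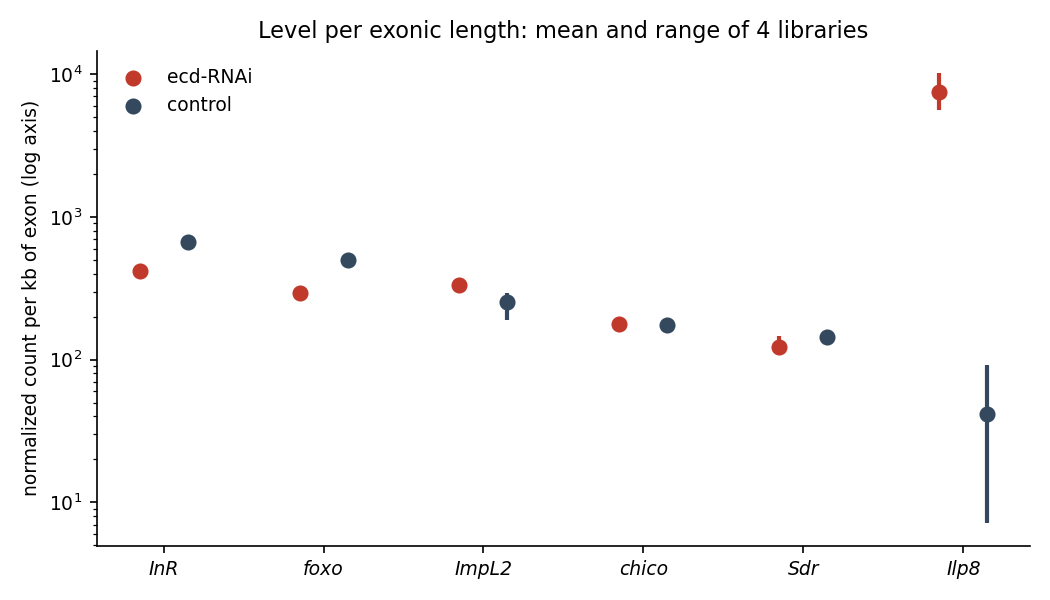
Normalized count per kb of annotated exon on a logarithmic axis for the 6 genes, ordered by their control level, with ecd-RNAi libraries left of control libraries. Points are means and lines the range over 4 libraries; Ilp8 is at 7437 in ecd-RNAi libraries and 41.3 in control libraries, while the other 5 genes stay between 124 and 665.

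The rest of the pathway went both ways. Of 54 genes listed for insulin signalling, the 6 among them, 47 were tested: 16 were called higher, 18 lower and 13 were not called, or 34.0% and 38.3%, against 30.8% and 31.7% of all tested genes. The median log2 fold change was 0.02 over the 47 genes and 0.0014 over all tested genes. Those shares and that median lie near the background. With libraries recentred on their medians, or rescaled to the sum of gene rows without ribosomal RNA, 11 of the pathway genes were called higher and 23 lower. That rescaling left out transposon rows as well as ribosomal RNA. Under these scalings all tested genes shifted the same way: 2285 higher and 3691 lower when recentred, and 2331 and 3474 when rescaled. Of called genes, 32.4% were then higher in the pathway under either scaling, against 38.2% and 40.2% over all tested genes.

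**Figure D3:**
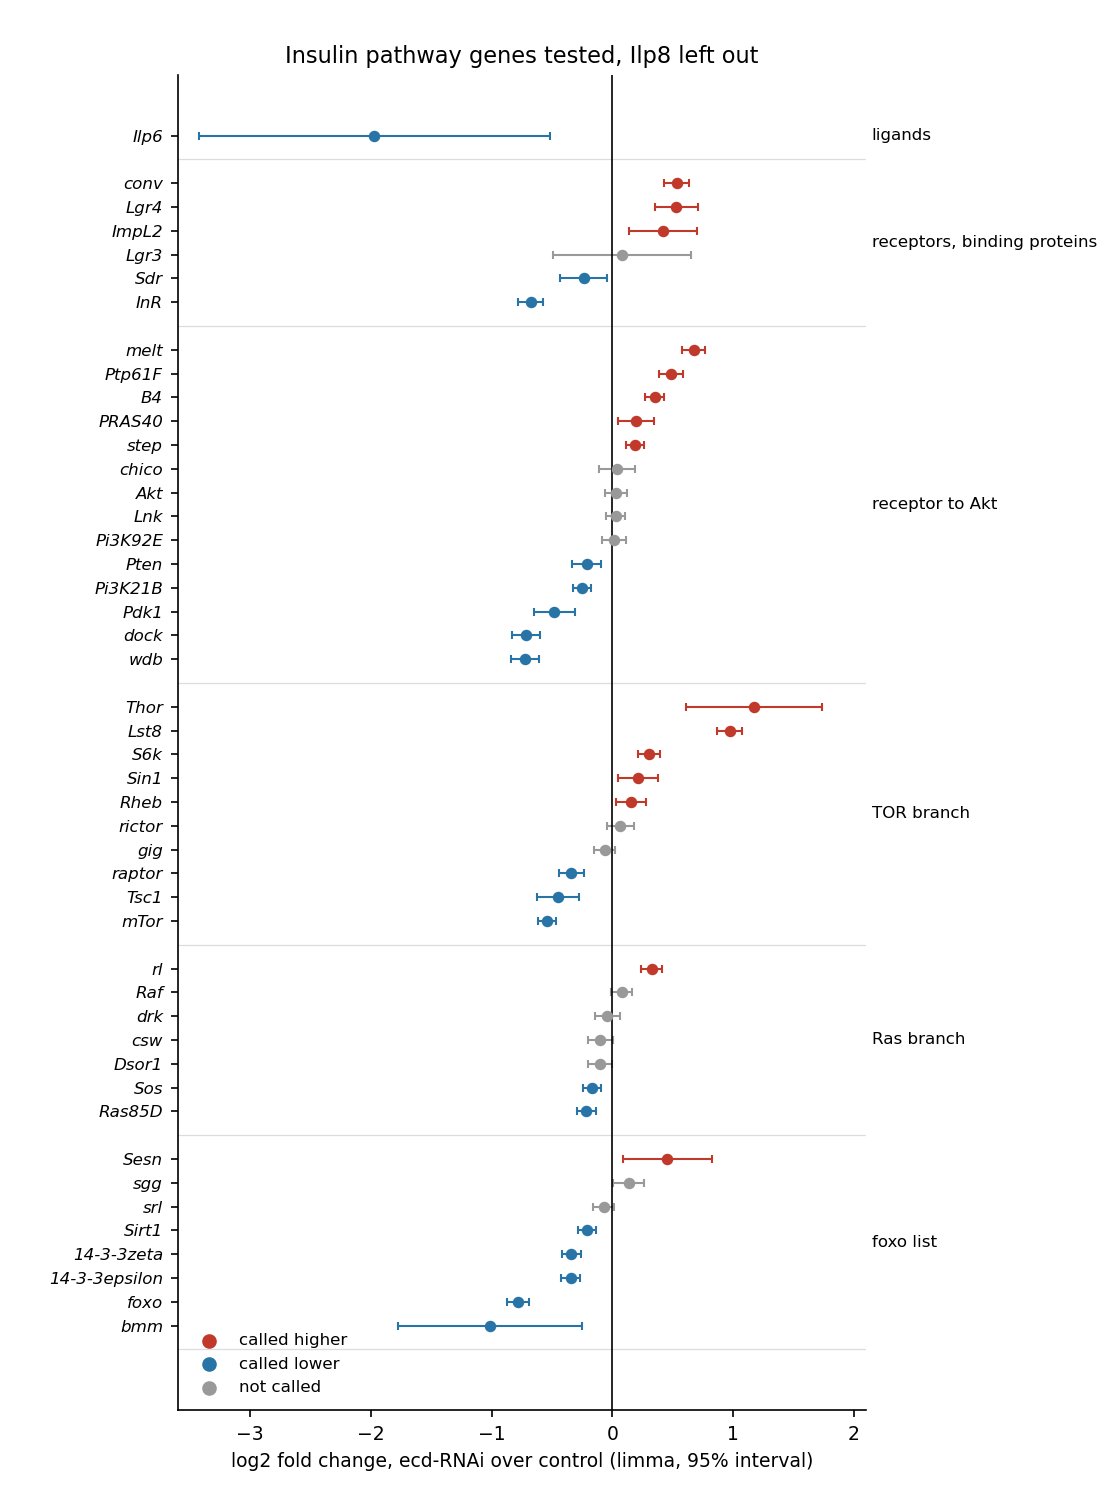
Log2 fold change, ecd-RNAi over control, with its 95% interval from limma, for the tested genes of the insulin pathway other than Ilp8, grouped by role; a gene in 2 groups is drawn once. Red genes were called higher, blue lower and grey not called; within each branch from the receptor on, members lie on both sides of 0.

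Between the receptor and Akt, 5 of 14 genes were called higher, 5 lower and 4 not, where 30.8% of all tested genes were called higher and 31.7% lower. The catalytic subunit gene Pi3K92E, Akt, the adaptor gene Lnk and chico had log2 fold changes between 0.02 and 0.04 and were not called. The adaptor dock fell to 789 ± 46.6 normalized counts in libraries labelled ecd-RNAi, against 1292 ± 50.05 in controls (log2 fold change -0.71). The phosphatase subunit wdb, which acts on Akt, fell to 4085 ± 291 in libraries labelled ecd-RNAi, against 6730.3 ± 247 in controls (-0.72). The adaptor melt, which binds both foxo and the TOR inhibitor complex, rose to 3174 ± 132 in libraries labelled ecd-RNAi, against 1988 ± 86.5 in controls (0.67). Adjusted p-values of the 3 genes from limma with Benjamini-Hochberg adjustment lay between 4.38e-07 and 1.13e-06.

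On the TOR branch, which links insulin signalling to protein synthesis, 5 of 10 genes were called higher, 3 lower and 2 not. For this branch and the Ras branch, the shares over all tested genes were 30.8% higher and 31.7% lower. Lists this short do not set a branch apart from those shares. The kinase gene mTor fell to 2951 ± 84.5 normalized counts in libraries labelled ecd-RNAi, against 4290.5 ± 124 in controls (log2 fold change -0.54). Lst8, a subunit of both TOR complexes, rose to 2019 ± 104 in libraries labelled ecd-RNAi, against 1029 ± 45.1 in controls (0.97). Thor, the translation repressor 4E-BP, rose to 68.9 ± 18.4 in libraries labelled ecd-RNAi, against 29.7 ± 7.14 in controls (1.17, SE 0.25, adjusted p = 0.00227 by limma and Benjamini-Hochberg). On the Ras branch the changes were small: 1 of 7 genes was called higher (rl, the MAP kinase, 0.33), 2 lower (Sos -0.17 and Ras85D -0.22) and 4 not.

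The list of foxo with its textbook targets and regulators had 10 tested genes, of which 2 were called higher and 6 lower, where 30.8% of all tested genes were called higher and 31.7% lower. The 6 included foxo and InR, and Lip4 stayed below the filter on low values. InR and Thor are both known foxo targets; InR fell and Thor rose. The lipase gene bmm, another known target, was at 80.8, 144, 98.9 and 35.6 normalized counts in ecd-RNAi replicates 1 to 4 and 148, 167, 155 and 183 in control replicates 1 to 4. It fell (log2 fold change -1.01, SE 0.34, adjusted p = 0.0249 by limma and Benjamini-Hochberg), without overlap between the groups, and with the call lost without control replicate 2 or 4 or without a mean trend in the fit (adjusted p = 0.052, 0.0615 and 0.0515; between 0.00472 and 0.0615 over all settings). Without ecd-RNAi replicate 4, the lowest library, its log2 fold change was -0.63. The 14-3-3 genes, whose products hold phosphorylated foxo in the cytoplasm, both fell by 0.34 on the log2 scale (14-3-3epsilon and 14-3-3zeta).

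Of 15 factors reported to act upstream of Ilp8, 11 were called higher, 2 lower and 2 not, with a median log2 fold change of 0.66, where 30.8% of all tested genes were called higher. This list was drawn up with earlier results of these libraries known and is not independent evidence. Among the 11, Irbp18, the partner of Xrp1 in a bZIP dimer, was at 728, 671, 659 and 673 normalized counts in ecd-RNAi replicates 1 to 4 and 146, 114, 142 and 157 in control replicates 1 to 4. Ets21C, an ETS factor induced by JNK signalling, was at 1462.5, 1901, 1950.2 and 1260.2 in ecd-RNAi replicates 1 to 4 and 22.1, 129, 123 and 21.7 in control replicates 1 to 4. Neither gene's groups overlapped. The cytokine gene upd3, a ligand of the JAK/STAT pathway, was at 978, 1373, 1379.9 and 1035 in ecd-RNAi replicates 1 to 4 and 16.6, 44.4, 35.7 and 14.7 in control replicates 1 to 4. Xrp1 averaged 13484 ± 320 in libraries labelled ecd-RNAi and 4367 ± 634 in controls (SD, n = 4 each; log2 fold change 1.64). Among the other members, the JNK gene bsk and the TEAD factor sd fell by 0.20 and 0.31 on the log2 scale, and yki and Stat92E were not called (0.11 and -0.09).

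Of 6 receptor and neuropeptide genes of the axis on which Ilp8 acts in the brain, 4 were tested, with 2 called higher, 1 lower and 1 not. Among all tested genes, 30.8% were called higher and 31.7% lower. The RNA came from wing discs, so these values do not measure that axis in the brain. Ptth, the neuropeptide that stimulates ecdysone production, was called higher at 28.7 ± 8.34 normalized counts in libraries labelled ecd-RNAi, against 13.9 ± 4.62 in controls (log2 fold change 0.99, adjusted p = 0.0213 by limma and Benjamini-Hochberg), with overlapping groups and a call lost without any 1 of ecd-RNAi replicates 1, 2 or 3 or control replicate 4, or with quantile normalization (adjusted p between 0.0519 and 0.0857 by limma; between 0.00616 and 0.0857 over the settings in which it was tested, which leave out the filter at a mean of 50). With quantile normalization its log2 fold change was 0.65. The receptor gene tor and the ligand gene jeb stayed below the filter on low values, and the receptor gene Alk fell to 95.02 ± 18.0 in libraries labelled ecd-RNAi, against 191 ± 20.8 in controls (-1.02, adjusted p = 0.000111).

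For each gene, the 3 tested genes with the most similar profile over the 8 libraries were found by the root mean square distance between log2 values centred on each gene's mean. The nearest to Ilp8 were Arc1 (0.52), RabX2 (0.70) and CG14695 (0.75). Arc1, a capsid-like protein gene, was at 377125, 467079, 378846 and 269276 normalized counts in ecd-RNAi replicates 1 to 4 and 787, 3252, 1243 and 883 in control replicates 1 to 4. In both genes ecd-RNAi replicate 2 was the highest and replicate 4 the lowest of its group, and control replicate 2 was the highest and control replicate 1 the lowest. Such a shared order is partly built in, because the distance was taken over these same libraries. The nearest to foxo were Atpalpha, Alh and luna, at 0.02 to 0.03, and the nearest to InR were sns, Sec24CD and fus, at 0.04 to 0.05. ImpL2 was nearest to CG6674, BORCS5 and CG3699 (0.09 to 0.12), Sdr to CG9643, PNPase and Mef2 (0.05 to 0.07), and chico to CG42271, Parg and CG4619 (0.03 to 0.04). Distances are smaller for genes that vary less, and they describe these libraries.

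**Figure D4:**
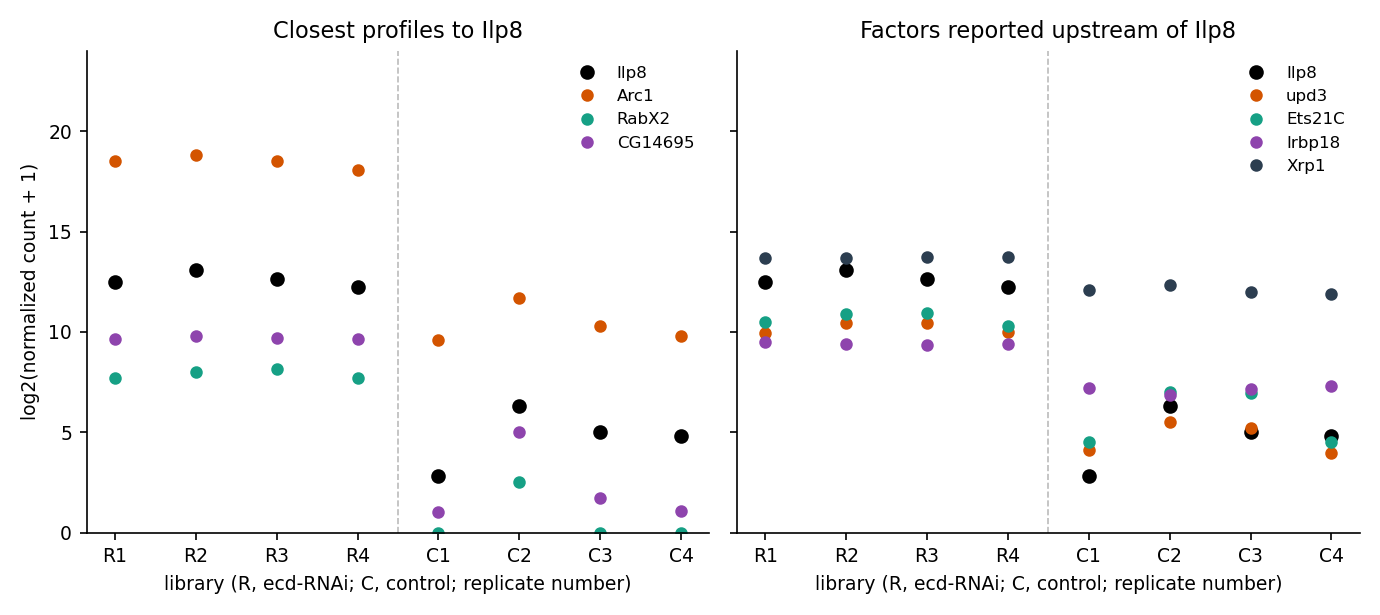
Log2(normalized count + 1) of Ilp8 in black in each library, ecd-RNAi replicates R1 to R4 left of control replicates C1 to C4, beside the 3 genes with the nearest profile (left panel) and 4 factors reported upstream of it (right panel). Ilp8, Arc1, RabX2 and CG14695 have their highest control value in replicate 2, and the change of Xrp1 and Irbp18 is smaller than that of Ilp8. The 3 genes with the nearest profile were picked over these same libraries, so their shared peak is partly built in.

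Markers of other cells in the pool are given beside the shares over all tested genes, 62.5% called, 30.8% higher and 31.7% lower. Of 6 hemocyte markers, 3 were called higher and 0 lower, with a summed level of 2390.5 to 4442 normalized counts in libraries labelled ecd-RNAi and 2018 to 2509 in controls. Of 6 tracheal markers, 1 was called higher and 5 lower (summed level 13060 to 15199 in libraries labelled ecd-RNAi and 21587 to 22536 in controls). Of 6 muscle precursor markers, 0 were called higher and 5 lower (3518 to 4136 in libraries labelled ecd-RNAi and 5864 to 6121 in controls). Of 6 neuronal, glial and sensory organ markers 1 was called higher and 2 lower (614 to 761 in libraries labelled ecd-RNAi and 703 to 831 in controls). Of 5 salivary gland markers 4 were tested, with 0 called higher and 3 lower (64.3 to 88.9 in libraries labelled ecd-RNAi and 141 to 249 in controls). InR, foxo and ImpL2 are expressed in many tissues, and the part of these markers in their differences was not tested.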

How the data were processed

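Total RNA from wing discs (2 µg per library, 150 discs each) was sequenced in 4 ecd-RNAi and 4 control libraries, grouped by their titles. Per the submitters' processing notes, the authors' tools were kallisto 0.46.1, DESeq2 1.34.0, cutadapt 3.5 and FastQC, and the build was BDGP6; no source used here gives settings or strand use, and the labels disagree on single-end or paired-end reads. The authors deposited normalized counts, a signal per gene or transposon insertion that is never negative (23932 rows), and a table of their own comparison with log2 fold changes, their standard errors, p-values and a test score that was not used. Low values lay near multiples of 1 read, but only 71.6% to 86.9% of those up to 20 reads were within 0.1 of whole, so no count model was run; depth was approximated from the commonest step.

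Symbols came from a table matching 23366 identifiers; B4, mTor and dysf were found by the older names Susi, Tor and dys. Coordinates are from the Ensembl annotation of BDGP6. limma 3.58.1 in R 4.3.3 (lmFit, eBayes with a mean trend, two-sided, no covariate) was fitted to log2(normalized count + 1) of the 9380 genes averaging 10 or more, and was tested on simulated data. Exact permutation tests used 70 assignments. N-fold values are ratios of means. The genes, lists and tests were chosen with earlier results of these data known. Named genes were the 6 members, per list up to 4 called genes with an absolute log2 fold change of at least 0.5, genes at 0 or under the filter, and the 3 nearest profiles; Lgr3, Pi3K92E, Akt, Lnk, rl, Sos, Ras85D, the 14-3-3 genes, bsk, sd, yki and Stat92E were added after their values were seen. Alternatives changed the pseudocount, filter, scaling, variance model and block, or left out each library, and a further alternative was the authors' deposited comparison. Per the labels, replicates were biological. Promoter and protein sequences were not used here.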

Additional observations from a re-analysis of the deposited data

Results flagged for a closer look

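Among the 6 genes and the other pathway genes named with them, the highest or lowest of 4 libraries stood far from the other 3 in 1 of 44 groups, and chance does so in about 1 of 20 groups. It was Lst8 in control replicate 3, at 1096 normalized counts, where the other 3 control libraries held 999 to 1013.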

How the results depend on the processing

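Over 19 alternatives, Ilp8, ImpL2, InR and foxo kept their direction and their call. Their log2 fold changes ranged from 7.24 to 8.40, 0.29 to 0.50, -0.77 to -0.54 and -0.87 to -0.72. The call of ImpL2 came close to the threshold, with an adjusted p of 0.0461 by limma when libraries were recentred on their medians. No alternative left out ribosomal RNA while keeping transposon rows, so the call of ImpL2 under that scaling was not tested. The highest adjusted p by limma was 2.82e-05 for InR and 9.73e-06 for foxo. The call of Sdr was lost without a mean trend (-0.24) and in the authors' deposited table (-0.23); leaving out 1 library gave -0.32 to -0.19, with 6 of 8 such fits losing the call. The cause was not tested. chico, never called, turned negative with quantile normalization (-0.0231), recentring on the median (-0.0516) and rescaling without rRNA and transposon rows (-0.0365). Leaving out 1 library gave chico log2 fold changes of -0.0143 to 0.0772. Counts of called pathway genes ranged from 11 to 17 higher and 16 to 23 lower. Same-numbered libraries of the 2 groups did not deviate together (correlations -0.05 to 0.05), so the replicate block joins libraries that share only a number; with it Sdr was at -0.24, and no call among the 6 genes changed. Depth limits Ilp6 in the libraries labelled ecd-RNAi, and Ilp1, Ilp2, Ilp3, Ilp4, Ilp5 and Ilp7, which lie at 0 or near the limit that 3 reads set.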

Other observations

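Control libraries differed among themselves in Ilp8 and in the genes with the most similar profile. The log2 SD of Ilp8 was 0.36 over libraries labelled ecd-RNAi and 1.43 over controls. Control replicate 2 held the highest control value of Ilp8 (79.1 normalized counts), Arc1 (3252), RabX2 (4.75) and CG14695 (31.1). Arc1, RabX2 and CG14695 were picked by their likeness to Ilp8 over these same libraries, so the shared peak is partly built in. RabX2 lay near the level of 3 reads in that library, 3.60 normalized counts, and was at 0 in the other controls. Of the 15 factors reported upstream of Ilp8, 6 were highest among controls in replicate 2 (Xrp1, egr, puc, Ets21C, sd and upd3), 5 in replicate 3, 3 in replicate 4 and 1 in replicate 1. Ets21C was at 129 in control replicate 2 and 123 in control replicate 3, and Irbp18 had its lowest control value in replicate 2 (114). Of 6 fat body markers, 5 were highest among controls in replicate 2 (Lsp2, Fbp1, Fbp2, apolpp and Lsp1beta), while Ilp6 was highest in replicate 1 (33.0). This library was singled out after its values were seen, and the part of these markers in the Ilp8 values was not tested.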
